A study of Mus musculus with 32 samples.

Results

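Transcripts of 10 glucocorticoid response genes were followed in mouse spinal cord. The genes were the glucocorticoid receptor Nr3c1 and the hormone-induced genes Fkbp5, Tsc22d3, Zbtb16, Sgk1, Pdk4, Ddit4, Cdkn1a, Mt1 and Mt2. They were taken from the count table by symbol, 10 genes of 45706, and all 10 passed the filter on low counts that left 20015 genes. The mice were of a mixed FVB/N, C57BL/6 and DBA/2 background and were either CHMP2Bintron5 transgenic, carrying 12 copies of the transgene, or non-transgenic controls. CHMP2B belongs to the ESCRT-III complex, which remodels endosomal membranes, and the intron5 form is a truncated mutant associated with frontotemporal dementia and motor neuron disease. Ages were 1.5, 6 and 10-12 months, with 6, 5 and 6 control libraries (17 in all) and 5, 4 and 6 CHMP2Bintron5 libraries (15 in all). The series' design text counts 4 transgenic samples at 1.5 months and puts the oldest group at 12 months, and the sample labels were followed here. The labels do not state the promoter that drives the transgene or the cells that express it. Neither hormone levels nor the hour of collection is stated in the labels. The labels do not say that replicates were separate animals, so p-values measure the spread between these samples.

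Glucocorticoids enter cells and bind the receptor encoded by Nr3c1, which is held ready by heat shock chaperones. The bound receptor moves to the nucleus, attaches to glucocorticoid response elements and induces a set of genes shared by many tissues, among them Fkbp5, Tsc22d3, Zbtb16 and Sgk1. Fkbp5 codes for a co-chaperone that lowers the receptor's affinity for hormone and so closes a feedback loop. Hormone levels follow a daily rhythm and rise with stress, and the induced genes are used as readouts of recent exposure.

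Total counts per library, in units of 1000000, ran from 28.4 to 85.3, and the lowest count of any of the 10 genes in any library was 380, for Zbtb16. The libraries carried spinal cord transcripts, with Hoxc10 at 67.5 to 95.8 CPM (counts per 1000000, on scaled library sizes) and Slc5a7, the choline transporter of cholinergic neurons, at 61.6 to 131 CPM. CHMP2Bintron5 replicates 2 and 3 at 6 months held sensory neuron transcripts, with Avil up to 146 CPM, and 6 libraries had over 30 CPM of Acta1, skeletal muscle actin. The values below were also computed without those libraries. Libraries also differed in how levels followed GC content, by -0.44 to 0.41 on the log2 scale per 10% GC, and the group medians of this slope were higher in CHMP2Bintron5 at each age (-0.08 against -0.18 at 1.5 months, 0.20 against -0.03 at 6 months and 0.10 against -0.01 at 10-12 months).

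Promoter sequence from RefSeq (GRCm38.p6) was available by symbol for 8 of the 10 genes, in 16 windows of 250 bases before to 50 bases after a start site. Zbtb16 had no entry and Nr3c1 was not searched. Both strands were searched for the glucocorticoid response element, AGAACA and TGTTCT separated by any 3 bases, for TGTTCT alone, which the full element contains, and for the metal response element in the forms TGCGCNC and TGCACNC. The full element stood in 1 of the 6 Sgk1 windows and in 0.00913% of the 32851 windows of the table (3 windows). TGTTCT stood in 4 of the 16 windows, 3 of Sgk1 and 1 of Tsc22d3, and in 19% of all windows, and its copy outside the full element of the window shown is in lower case. The Mt1 window held 3 metal elements, the Mt2 window 4, and the Ddit4 window and 1 Sgk1 window not shown held 1 each. At least 1 stood in 25.7% of all windows, at least 3 in 1.97% and at least 4 in 0.517%. These 3 promoters are shown because they hold the elements of the hormone and of the metal response, to 30 bases past the start site, with the full glucocorticoid element (Sgk1) and the metal elements (Mt1 and Mt2), on either strand, in capitals. They lie at chr10:21993640-21993919 (Sgk1), chr8:94178839-94179118 (Mt1) and chr8:94172368-94172647 (Mt2), all on the plus strand.
Sgk1: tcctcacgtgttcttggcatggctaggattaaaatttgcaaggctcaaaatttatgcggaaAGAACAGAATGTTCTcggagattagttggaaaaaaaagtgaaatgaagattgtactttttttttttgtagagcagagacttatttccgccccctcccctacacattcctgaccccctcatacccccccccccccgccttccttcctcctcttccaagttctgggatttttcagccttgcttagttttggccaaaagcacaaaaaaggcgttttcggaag
Mt1: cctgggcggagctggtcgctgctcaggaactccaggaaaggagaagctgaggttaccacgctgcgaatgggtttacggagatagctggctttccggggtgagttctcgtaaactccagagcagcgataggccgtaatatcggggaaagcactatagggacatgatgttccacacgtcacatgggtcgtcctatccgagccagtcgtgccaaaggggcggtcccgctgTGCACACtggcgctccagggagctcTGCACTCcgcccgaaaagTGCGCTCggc
Mt2: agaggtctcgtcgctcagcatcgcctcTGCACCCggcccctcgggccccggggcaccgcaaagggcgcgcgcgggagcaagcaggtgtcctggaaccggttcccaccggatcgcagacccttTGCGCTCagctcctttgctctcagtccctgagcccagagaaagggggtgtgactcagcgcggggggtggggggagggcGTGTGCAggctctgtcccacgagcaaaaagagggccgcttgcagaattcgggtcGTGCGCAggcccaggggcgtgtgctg
The element of Sgk1 began 189 bases before the start site. A match describes the letters of the window and no binding was measured.

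Per kilobase of the longest transcript, the metallothioneins were the most abundant of the 10 genes. Over the 32 libraries the level was 425 ± 185 CPM per kilobase for Mt2 and 284 ± 131 for Mt1 (SD, n = 32). These SDs describe the spread between libraries. All 10 genes were measured in the same libraries, and differences between genes were not tested. Tsc22d3 followed at 65.4 ± 13.1, Sgk1 at 32 ± 18.9, Ddit4 at 31.2 ± 8.99 and Cdkn1a at 25.8 ± 6.63 CPM per kilobase. The means of the last 3 lay within 1 SD of Sgk1 of each other. Nr3c1 stood at 12.1 ± 1.89, Fkbp5 at 9.55 ± 4.4, Pdk4 at 5.33 ± 1.71 and Zbtb16 at 3.53 ± 2.19 CPM per kilobase. Means of neighbours in this order lay within the larger of their SDs, though not always within the smaller.

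Libraries of the same genotype and age varied more in most of these genes than in a typical gene. The within-group SD of log2(CPM + 1) was 0.81 for Sgk1, which stood at percentile 99.3 of genes with at least 1 CPM. It was 0.63 for Zbtb16 (percentile 99), 0.59 for Mt1, 0.54 for Mt2, 0.43 for Pdk4, 0.41 for Fkbp5 and 0.41 for Ddit4. The median gene had 0.18. Nr3c1, with 0.19 (percentile 58.2), and Tsc22d3, with 0.22 (percentile 69.7), were the steadiest. The plot of CPM by library shows this spread.

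**Figure D1:**
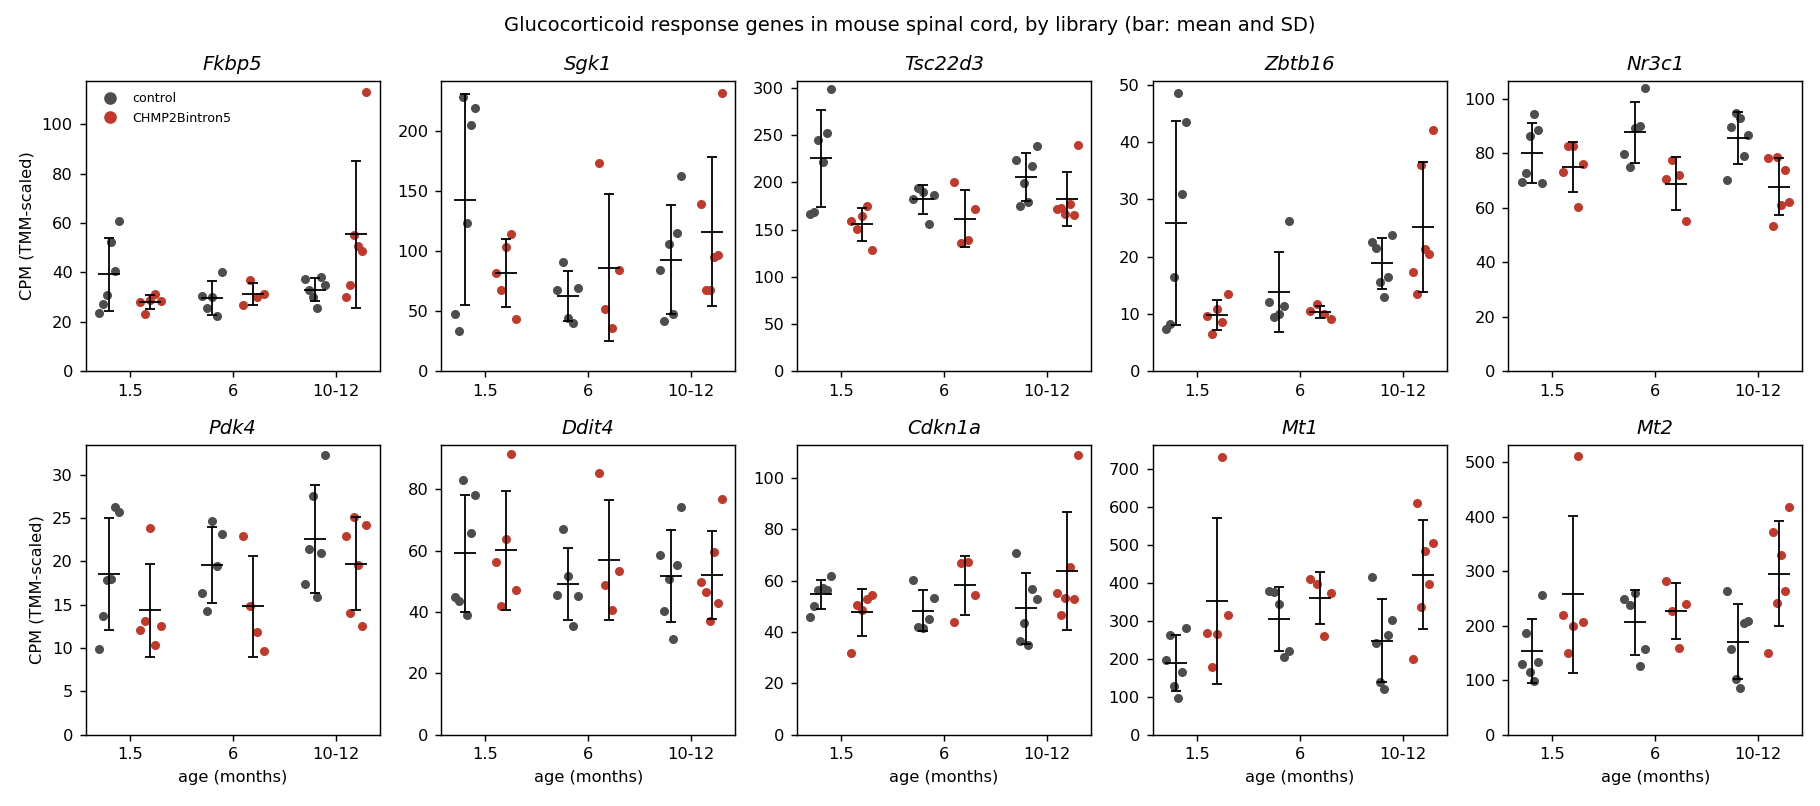
CPM (TMM-scaled, y axes from 0) of the 10 genes in each of the 32 libraries by age in months, controls in grey and CHMP2Bintron5 in red, with the group mean and SD in black. Most groups overlap, Fkbp5 reaches 113 CPM in 1 CHMP2Bintron5 library at 10-12 months, and Sgk1 and Zbtb16 spread widely among controls at 1.5 months.

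The first question was whether the genes differed between genotypes. They did not move as a set in 1 direction. At 1.5 months Tsc22d3 and Zbtb16 were lower in CHMP2Bintron5, at 10-12 months Fkbp5 was higher and Nr3c1 lower, and averaged over the 3 ages Tsc22d3 and Nr3c1 were lower and Mt1 and Mt2 higher. At 1.5 months 2 of 10 fell and 0 rose, where 3.73% of all tested genes were called in either direction and 1.97% were lower (edgeR's quasi-likelihood test, Benjamini-Hochberg adjusted p under 0.05 over all genes). At 6 months 0 of 10 were called, against 11.4% of all genes. There 1 of the 10 had an unadjusted p under 0.05 and DESeq2 also called 0. At 10-12 months 1 rose and 1 fell, against 18.6% of all genes, 8.24% higher and 10.4% lower. For the mean of the 3 ages 2 rose and 2 fell, against 38.9% of all genes, 19.7% higher and 19.2% lower, so the count of 4 of 10 was near the background. The median log2 fold change of the 10 genes was -0.28, 0.11, 0.35 and 0.04 in these 4 comparisons, and that of all genes lay between 0.00 and 0.02.

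**Figure D2:**
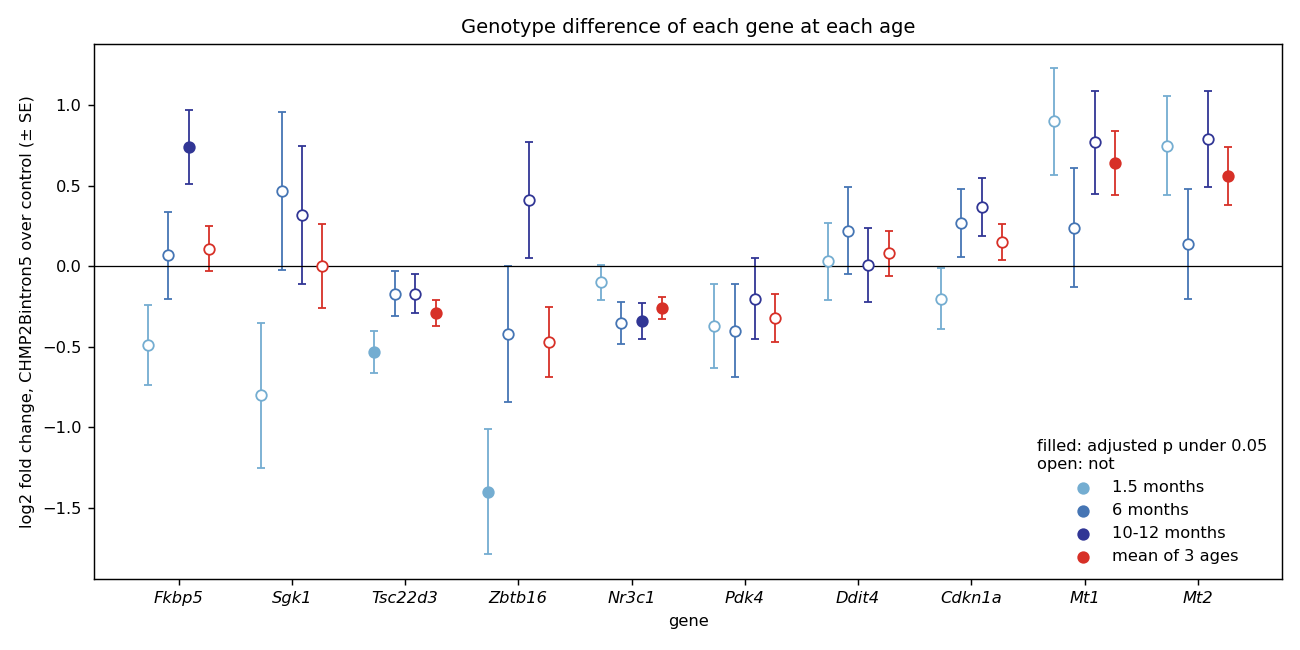
Log2 fold change of CHMP2Bintron5 over control (y axis, ± SE of the model) for each of the 10 genes (x axis) at the 3 ages in blue and for the mean of the ages in red, filled where the adjusted p was under 0.05. The filled points are Tsc22d3 and Zbtb16 at 1.5 months, Fkbp5 and Nr3c1 at 10-12 months, and Tsc22d3, Nr3c1, Mt1 and Mt2 for the mean of the ages.

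Nr3c1, the receptor itself (ENSMUSG00000024431, GRCm38 chromosome 18, 39410545 to 39519421, minus strand), was lower in CHMP2Bintron5. At 10-12 months controls ran from 70.1 through a median of 88.3 to 94.8 CPM and CHMP2Bintron5 from 53.3 through 68 to 78.5 CPM. The groups overlapped, and 3 of 6 transgenic libraries lay under every control. Nr3c1 was 1.26-fold lower there, a log2 fold change of -0.34 ± 0.11 (SE, adjusted p = 0.0311). At 6 months the control libraries had 79.8, 74.8, 89.4, 90.2 and 104 CPM and the transgenic ones 70.6, 77.6, 72.1 and 55.1 CPM. That difference, -0.35 ± 0.13, was similar in size and missed the threshold (adjusted p = 0.0722), which it passed without control replicate 2 (-0.39, adjusted p = 0.046) and after correction for GC content and length (-0.18, adjusted p = 0.02). At 1.5 months the difference was -0.10 ± 0.11 (adjusted p = 0.684).

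Averaged over the ages Nr3c1 fell by 0.26 ± 0.07 on the log2 scale (adjusted p = 0.00327). The level was 84.3 ± 10.4 CPM (SD, n = 17) in controls and 70.4 ± 9.7 CPM (SD, n = 15) in CHMP2Bintron5. This call stood in 32 of 32 fits that left out 1 library. Nr3c1 had the lowest GC content of the 10 transcripts, 42.2%, and within groups its level followed the GC slope of the library (r = -0.85, rho = -0.84, permutation p = 1e-05 for each, the smallest the permutations can give, adjusted p of r 3.33e-05 over 10 genes, r = -0.81 without the 2 libraries farthest in slope). With levels corrected for GC content and length, the difference was still called and was smaller, -0.10 for the mean of the ages (adjusted p = 0.00532) and -0.13 at 10-12 months (adjusted p = 0.0387). At 10-12 months the call was lost without control replicate 2, 3 or 4 or without CHMP2Bintron5 replicate 2, 4 or 6, with log2 fold changes from -0.32 to -0.28.

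Fkbp5, the feedback co-chaperone (ENSMUSG00000024222, GRCm38 chromosome 17, 28399094 to 28517527, minus strand), was higher in the oldest CHMP2Bintron5 cords. At 10-12 months controls had 25.4 to 38 CPM with a median of 33.8, and CHMP2Bintron5 had 29.9 to 113 CPM with a median of 49.8. In the transgenic group 4 of 6 libraries exceeded every control, and replicates 1 and 2 lay within the control range. The mean was 55.4 ± 30 CPM against 33.1 ± 4.78 CPM (SD, n = 6 each), a 1.67-fold difference with a log2 fold change of 0.74 ± 0.23 (SE, adjusted p = 0.0271). Replicate 6 had 113 CPM, and its summed skeletal muscle markers, 104 CPM, were among the lowest of that group. The part of muscle or of any other tissue in the Fkbp5 level of replicate 6 was not tested. Without that library the log2 fold change was 0.41 (adjusted p = 0.143), and the call was also lost without control replicate 3 (0.72, adjusted p = 0.0659) or 4 (0.68, adjusted p = 0.0732), and with the spread taken from these 2 groups alone (0.73, adjusted p = 0.064).

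At the younger ages Fkbp5 was not called between genotypes. At 1.5 months the control libraries spread from 23.4 through a median of 35.8 to 60.7 CPM, while CHMP2Bintron5 held 28.2, 23.1, 28.8, 31.1 and 28.4 CPM. The log2 fold change there was -0.49 ± 0.25 (adjusted p = 0.313), and at 6 months it was 0.07 ± 0.27 (adjusted p = 0.889). The genotype difference at 10-12 months exceeded that at 1.5 months by 1.24 ± 0.34 on the log2 scale. Its unadjusted p was 0.00107 and the adjusted p 0.384, so a change of the genotype effect with age was not called.

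Tsc22d3 codes for GILZ, a leucine zipper protein that carries part of the hormone's anti-inflammatory action (ENSMUSG00000031431, GRCm38 chromosome X, 140539528 to 140600659, minus strand). It was lower in CHMP2Bintron5, most clearly at 1.5 months. Controls ran from 167 through a median of 234 to 299 CPM, and CHMP2Bintron5 had 159, 151, 165, 175 and 128 CPM. Control replicates 1 and 2, with 167 and 169 CPM, were the ones that overlapped the transgenic libraries. This was a level 1.45-fold lower, at -0.53 ± 0.13 on the log2 scale (SE, adjusted p = 0.0159). The call was lost without control replicate 6 (-0.44, adjusted p = 0.0519) or CHMP2Bintron5 replicate 5 (-0.46, adjusted p = 0.063), and when the spread was taken from these 2 groups alone (-0.53, adjusted p = 0.106). At 6 and 10-12 months the log2 fold change was -0.17 at both (adjusted p = 0.476 and 0.332).

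Averaged over the ages Tsc22d3 fell by 0.29 ± 0.08 on the log2 scale (adjusted p = 0.00397). The level was 206 ± 37.5 CPM (SD, n = 17) in controls and 168 ± 27 CPM (SD, n = 15) in CHMP2Bintron5. The call stood in 32 of 32 fits without 1 library, and the GC and length correction left it at -0.29 (adjusted p = 0.00392).

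Zbtb16, the zinc finger transcription factor PLZF (ENSMUSG00000066687, GRCm38 chromosome 9, 48654297 to 48836222, minus strand), showed the largest genotype difference of the 10 genes at 1.5 months. Controls ran from 7.35 through a median of 23.7 to 48.6 CPM, and CHMP2Bintron5 had 9.63, 6.53, 10.8, 8.53 and 13.5 CPM. Control replicates 1 and 2, with 7.35 and 8.32 CPM, fell inside the transgenic range, and the other 4 lay above it. Zbtb16 was 2.64-fold lower, at -1.40 ± 0.39 on the log2 scale (SE, adjusted p = 0.0341). It was called in only 4 of 11 fits without 1 library. The call was lost without control replicate 4, 5 or 6 or without CHMP2Bintron5 replicate 1, 2, 3 or 4, with log2 fold changes from -1.44 to -1.12 (adjusted p = 0.0583 to 0.123), and with the spread of these 2 groups alone (-1.40, adjusted p = 0.192).

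Zbtb16 was not called at the later ages. At 10-12 months controls had 13 to 23.8 CPM with a median of 19.1, and CHMP2Bintron5 had 13.5 to 42.2 CPM with a median of 20.9. The log2 fold change was 0.41 ± 0.36 (adjusted p = 0.423), and at 6 months it was -0.42 ± 0.42 (adjusted p = 0.539). The genotype effects at 10-12 and 1.5 months differed by 1.82 ± 0.52 on the log2 scale (unadjusted p = 0.00156, adjusted p = 0.435), which was not called.

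Sgk1, a kinase that regulates ion channels and transporters (ENSMUSG00000019970, GRCm38 chromosome 10, 21882184 to 21999903, plus strand), varied most. At 1.5 months controls ran from 33.4 through a median of 164 to 228 CPM, and CHMP2Bintron5 had 81.5, 67.1, 103, 114 and 43 CPM. Control replicates 1 and 2, at 47.5 and 33.4 CPM, were again the low ones, and the other 4 exceeded every transgenic library. The log2 fold change was -0.80 ± 0.45 (adjusted p = 0.381). It was 0.47 ± 0.49 at 6 months and 0.32 ± 0.43 at 10-12 months, neither called. These SEs were the largest of the 10 genes in each of the 3 comparisons.

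Pdk4, Ddit4 and Cdkn1a were not called between genotypes at any age. Pdk4, the kinase that shuts off pyruvate dehydrogenase in fasting, had 20.3 ± 5.78 CPM (SD, n = 17) in controls and 16.6 ± 5.71 CPM (SD, n = 15) in CHMP2Bintron5. Its log2 fold change was below 0 at each age and -0.32 ± 0.15 for the mean of the ages (adjusted p = 0.0922). That mean was called without the Acta1 libraries (-0.53, adjusted p = 0.0117). It was also called when leaving out control replicate 1 at 1.5 months (-0.36, adjusted p = 0.0464), CHMP2Bintron5 replicate 3 at 1.5 months (-0.41, adjusted p = 0.0267) or CHMP2Bintron5 replicate 1 at 6 months (-0.42, adjusted p = 0.0294). Ddit4, an inhibitor of the growth kinase mTOR that hypoxia also induces, had 53.5 ± 15.4 CPM (SD, n = 17) and 56.1 ± 16.6 CPM (SD, n = 15), with a log2 fold change of 0.08 ± 0.14 (adjusted p = 0.661). Cdkn1a, the cell cycle inhibitor p21 and also a target of p53, had 34.9 to 70.8 CPM in controls at 10-12 months and 46.6 to 109 CPM in CHMP2Bintron5. Its log2 fold change there was 0.37 ± 0.18 (adjusted p = 0.143), and it was 0.15 without CHMP2Bintron5 replicate 6 and 0.51 (adjusted p = 0.0398) without control replicate 1.

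Mt1 and Mt2, metallothioneins that bind zinc and copper and answer to both metals and glucocorticoids, were higher in CHMP2Bintron5. Mt1 (ENSMUSG00000031765, 94179082 to 94180327) and Mt2 (ENSMUSG00000031762, 94172664 to 94173568) are neighbours on the plus strand of GRCm38 chromosome 8, 5513 bases apart. They are similar in sequence, and how reads that match both were counted was not examined, so their values should not be read as independent. Mt1 ran from 95.7 through a median of 241 to 416 CPM in the 17 controls and from 179 through 374 to 732 CPM in the 15 CHMP2Bintron5 libraries. Mt2 ran from 85.9 through 158 to 264 CPM and from 150 through 240 to 511 CPM. The ranges overlapped for both genes.

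Averaged over the ages Mt1 rose 1.56-fold, with a log2 fold change of 0.64 ± 0.20 (SE, adjusted p = 0.0111). Mt2 rose 1.47-fold, by 0.56 ± 0.18 (adjusted p = 0.0159). Both calls stood in 32 of 32 fits without 1 library. Mt2 was not called without the Acta1 libraries (0.49, adjusted p = 0.074), where Mt1 was (0.61, adjusted p = 0.0424). At single ages neither was called. At 6 months the differences were the smallest, 0.24 ± 0.37 for Mt1 (adjusted p = 0.707) and 0.14 ± 0.34 for Mt2 (adjusted p = 0.825). At 1.5 months Mt1 differed by 0.90 ± 0.33 (adjusted p = 0.141), with CHMP2Bintron5 replicate 4 at 732 CPM and the other 4 transgenic libraries at 179 to 316 CPM against 95.7 to 282 CPM in controls. At 10-12 months Mt1 differed by 0.77 ± 0.32 (adjusted p = 0.0838) and Mt2 by 0.79 ± 0.30 (adjusted p = 0.0587). These passed the threshold without control replicate 1 (Mt1 0.99, adjusted p = 0.0276, and Mt2 0.96, adjusted p = 0.0235) or without CHMP2Bintron5 replicate 1 (Mt1 0.91, adjusted p = 0.0393, and Mt2 0.92, adjusted p = 0.0265), and DESeq2 called Mt2 at this age (adjusted p = 0.048).

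The metallothioneins also followed the GC slope of the library. Within groups r was 0.89 for Mt1 (rho = 0.87) and 0.83 for Mt2 (rho = 0.78), with permutation p of 1e-05 to 2e-05 and an adjusted p of r of 3.33e-05 for each. Without the 2 libraries farthest in slope r was 0.85 and 0.75. After the GC and length correction Mt1 was at 0.49 (adjusted p = 0.0112) and Mt2 at 0.34 (adjusted p = 0.0371) for the mean of the ages. None of the other 7 genes than these and Nr3c1 was called for a correlation with the slope, and their r ran from -0.33 to 0.38. The ratio of Mt1 to Mt2 was 1.41 ± 0.177 (SD, n = 32), and it ranged from 0.979 to 1.74.

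Cell type markers moved with genotype too, and in whole tissue fewer cells of a type and less RNA per cell cannot be told apart. For the mean of the ages, where 19.7% of all genes rose and 19.2% fell, 8 of 12 reactive astrocyte markers rose and 1 fell. Their summed level was 1504 to 1822 CPM in controls and 2945 to 3276 CPM in CHMP2Bintron5 at 1.5 months, 1284 to 1955 CPM against 1738 to 2258 CPM at 6 months, where the groups overlapped, and 1434 to 1622 CPM against 2244 to 2714 CPM at 10-12 months. Of 12 microglial markers 9 rose and 1 fell, with 216 to 285 CPM against 452 to 542 CPM at 1.5 months, 316 to 439 CPM against an overlapping 341 to 465 CPM at 6 months, and 312 to 406 CPM against 363 to 478 CPM at 10-12 months. Of 10 endothelial markers 7 fell, with 387 to 438 CPM against 350 to 375 CPM at 1.5 months. At 6 months they had 388 to 488 CPM against an overlapping 338 to 400 CPM, and at 10-12 months 388 to 468 CPM against 315 to 367 CPM. Of 10 oligodendrocyte markers 6 fell. At 1.5 months they had 24542 to 31430 CPM against an overlapping 18947 to 25101 CPM. At 6 months they had 18426 to 22564 CPM against 13920 to 16371 CPM. At 10-12 months they had 16966 to 21056 CPM against an overlapping 14156 to 18413 CPM. Of 10 neuronal markers 1 rose and 5 fell, and their summed level did not overlap at any age, with 11004 to 12308 CPM against 9530 to 10721 CPM at 1.5 months, 10233 to 11294 CPM against 7766 to 9848 CPM at 6 months and 10279 to 12431 CPM against 8539 to 9713 CPM at 10-12 months. Of 12 spinal cord identity genes 8 rose and 2 fell, while their summed level was lower in CHMP2Bintron5 without overlap at each age. It was 997 to 1167 CPM against 825 to 981 CPM at 1.5 months and 989 to 1078 CPM against 767 to 884 CPM at 6 months. At 10-12 months the medians were 1037 and 867 CPM. Slc6a5 was the largest part of this sum, with a mean of 469 CPM over all libraries, so the sum does not stand for most of the 12 genes. The part of these cells in the differences of the 10 genes was not tested.

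The second question was whether the genes changed with age within a genotype. In controls 0 of 10 were called between any pair of ages, against 10.3% of all genes from 1.5 to 6 months, 4.18% from 1.5 to 10-12 months and 0% from 6 to 10-12 months. DESeq2 also called 0 in each, and 4, 0 and 0 of the 10 had an unadjusted p under 0.05. From 1.5 to 6 months Zbtb16 in controls differed by -0.90 (adjusted p = 0.117). It was called without control replicate 1 or 2 at 1.5 months (-1.11, adjusted p = 0.0498, and -1.09, adjusted p = 0.0476) or replicate 5 at 6 months (-1.28, adjusted p = 0.0334), and without the Acta1 libraries (-1.48, adjusted p = 0.032). Nr3c1 in controls differed by 0.13 (adjusted p = 0.483) and was called after the GC and length correction (0.22, adjusted p = 0.00187). Sgk1 differed by -1.19 ± 0.46 (adjusted p = 0.0885) and was called without control replicate 2 at 1.5 months (-1.39, adjusted p = 0.037). In CHMP2Bintron5 2 of 10 rose from 1.5 to 10-12 months, against 6.59% of all genes in either direction and 3.12% higher. Fkbp5 rose 1.99-fold, by 0.99 ± 0.25 on the log2 scale (adjusted p = 0.0157), with means of 27.9 ± 2.91 CPM in the 5 younger and 55.4 ± 30 CPM in the 6 older libraries (SD). Zbtb16 rose 2.57-fold, by 1.36 ± 0.39 (adjusted p = 0.0308), with means of 9.79 ± 2.59 and 25.1 ± 11.3 CPM (SD). In Zbtb16 the highest library at 1.5 months, 13.5 CPM, equalled the lowest at 10-12 months to 3 digits, and in Fkbp5 only replicate 1 of the older group, with 29.9 CPM, lay inside the younger range.

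Both of these calls were lost without CHMP2Bintron5 replicate 2 at 1.5 months (Fkbp5 0.91, adjusted p = 0.0599, and Zbtb16 1.23, adjusted p = 0.109) and without replicate 6 at 10-12 months (Fkbp5 0.65, adjusted p = 0.063, and Zbtb16 1.15, adjusted p = 0.0824). Zbtb16 was also lost without replicate 1 or 3 at 1.5 months or replicate 3 at 10-12 months (1.21 to 1.40, adjusted p = 0.0577 to 0.0718). Neither was called without the Acta1 libraries (Fkbp5 1.00, adjusted p = 0.0681, and Zbtb16 1.27, adjusted p = 0.0855), and Fkbp5 was not called with the spread of these 2 groups alone (0.97, adjusted p = 0.0672). From 1.5 to 6 months and from 6 to 10-12 months 0 of 10 were called in CHMP2Bintron5, against 4.79% and 0.345% of all genes. DESeq2 also called 0, and 0 and 2 of the 10 had an unadjusted p under 0.05. These age comparisons share the 1.5 and 10-12 month CHMP2Bintron5 libraries with the genotype comparisons.

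The genotype effect was also compared between ages for every gene. The interaction was called for 0 of 10 between 6 and 1.5 months, between 10-12 and 1.5 months and between 10-12 and 6 months, against 0.155%, 0.00999% and 0.005% of all genes. DESeq2 called 0 in each as well, and 0, 3 and 0 of the 10 had an unadjusted p under 0.05. The third of those 3, beside Fkbp5 and Zbtb16, was Cdkn1a (0.57 ± 0.26, unadjusted p = 0.0376, adjusted p = 0.846).

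Beyond the group means, the genes varied together between libraries of 1 group. Over the 32 libraries with group means removed, 17 of the 45 pairs were called, 15 positive and 2 negative (permutation test of Pearson's r with 100000 resamples within groups, two-sided, adjusted over the 45 pairs). Rank correlation called 16 pairs. One tight set held Sgk1, Tsc22d3 and Ddit4. Sgk1 and Tsc22d3 had r = 0.91 and rho = 0.89, Sgk1 and Ddit4 had r = 0.81 and rho = 0.82, and Tsc22d3 and Ddit4 had r = 0.81 and rho = 0.83, with a permutation p of 1e-05 (the smallest possible) and an adjusted p of 9e-05 for each. Without the 2 libraries farthest from the median of the first gene r was 0.87, 0.84 and 0.82.

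Fkbp5 and Zbtb16 formed the other close pair, with r = 0.82 (permutation p = 1e-05, adjusted p = 9e-05) and rho = 0.83 (permutation p = 2e-05, adjusted p = 0.000129), and r = 0.88 without CHMP2Bintron5 replicates 1 and 6 at 10-12 months. Fkbp5 also went with Cdkn1a (r = 0.65, rho = 0.63, permutation p = 6e-05 and 0.00019, adjusted p = 0.000337 and 0.00107), where r was 0.51 without those libraries. The link from Fkbp5 to Tsc22d3 was weaker (r = 0.59, rho = 0.49, permutation p = 0.00322 and 0.0146, adjusted p = 0.0121 and 0.0454, r = 0.51 without those libraries). Fkbp5 and Sgk1, both direct targets of the receptor, had r = 0.44 and were not called (adjusted p = 0.0772). Pdk4 was called with Zbtb16 (r = 0.57, rho = 0.57), Sgk1 (r = 0.53, rho = 0.48), Tsc22d3 (r = 0.52, rho = 0.42) and Nr3c1 (r = 0.48, rho = 0.47), with permutation p of r from 0.00245 to 0.0138 and adjusted p from 0.01 to 0.0366. Without the 2 farthest libraries these 4 were at 0.54, 0.39, 0.40 and 0.38.

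Mt1 and Mt2 had r = 0.96 and rho = 0.96 (permutation p = 1e-05 and adjusted p = 9e-05 for each, r = 0.95 without the 2 farthest libraries). Nr3c1 ran against both, with r = -0.78 for Mt1 and -0.74 for Mt2 (permutation p of r 2e-05 and adjusted p 0.000129 for each, rho = -0.80 and -0.74 with permutation p = 1e-05 and 2e-05, r = -0.82 and -0.78 without the 2 farthest libraries). These 2 negative pairs moved with the GC slope. After the GC and length correction they were at -0.22 (adjusted p = 0.336) and -0.27 (adjusted p = 0.255). The correction left 15 pairs called, 12 of them called both ways. The pairs among Sgk1, Tsc22d3 and Ddit4 were then at 0.91, 0.89 and 0.76, and Fkbp5 with Zbtb16 at 0.82. The other pairs called only without it were Nr3c1 with Pdk4, Ddit4 with Mt1 and Ddit4 with Mt2, and those called only with it were Fkbp5 with Mt2, Sgk1 with Mt2 and Pdk4 with Ddit4.

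**Figure D3:**
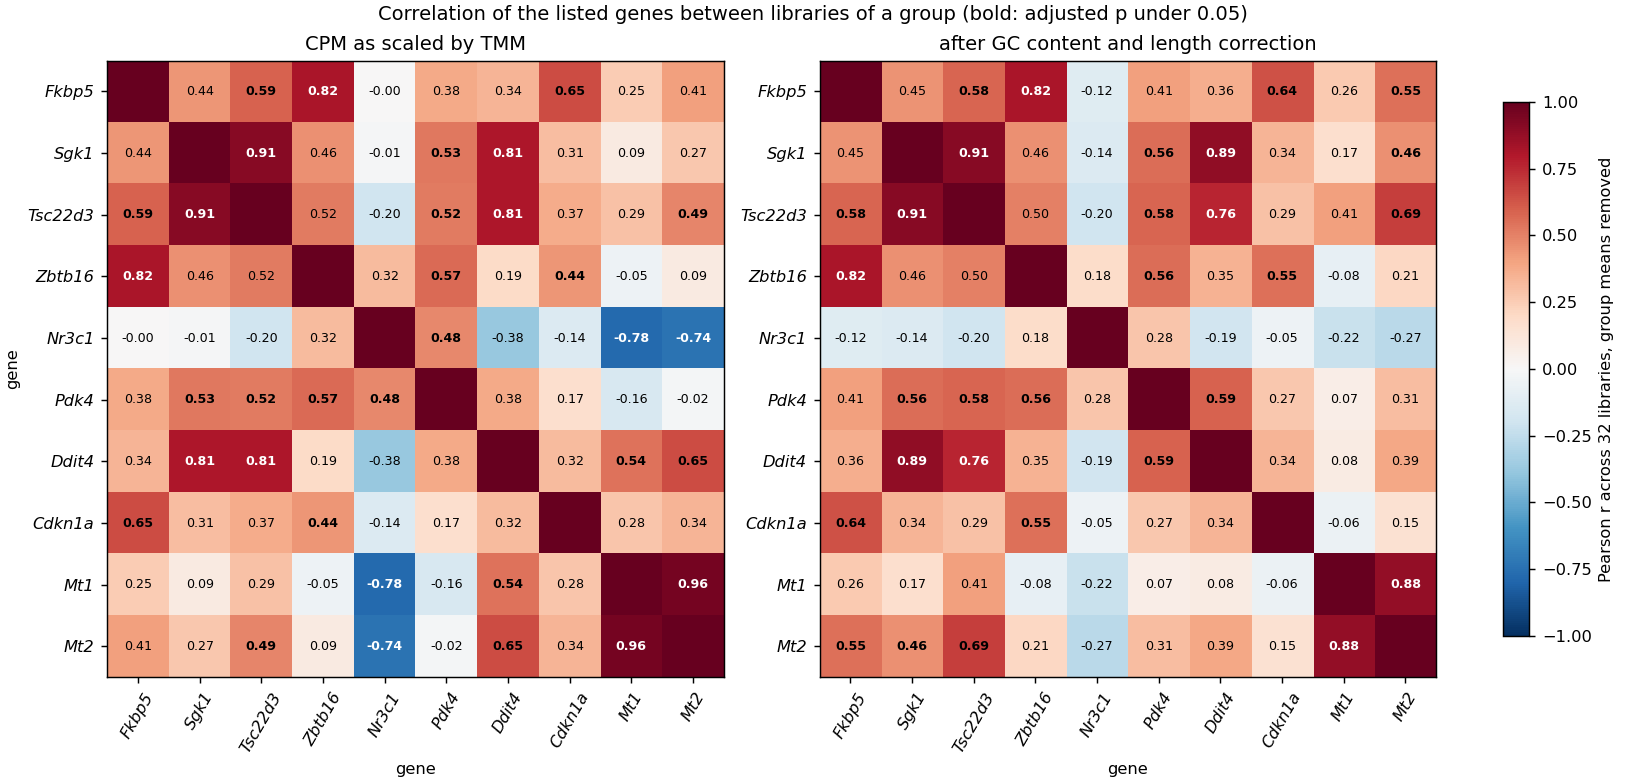
Pearson r (colour and number, scale from -1 to 1) of log2 levels for each pair of the 10 genes across 32 libraries with group means removed, on TMM-scaled CPM at the left and after correction for GC content and length at the right, bold where the adjusted p was under 0.05. Sgk1 with Tsc22d3 is at 0.91 in both panels, while Nr3c1 with Mt1 goes from -0.78 to -0.22.

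Across all genes, 97 of the other 20014 followed Fkbp5 within groups (0.485%), 60 of them positively (0.3%, adjusted over all genes). Of 25 other glucocorticoid-induced genes 5 were called, all positive, and the median r of the 25 was 0.41 against 0.02 for all genes. They were the kinase Map3k6 (r = 0.86, rho = 0.76), the hypoxia factor subunit Hif3a (0.78, 0.67), the phagocytic receptor Mertk (0.72, 0.56), the interleukin receptor Il6ra (0.68, 0.77) and the transcription factor Klf15 (0.63, 0.65), with permutation p from 1e-05 to 0.00014 and adjusted p from 0.0125 to 0.0369 for r. Without CHMP2Bintron5 replicates 1 and 6 at 10-12 months their r was 0.76, 0.62, 0.64, 0.69 and 0.66. Plin4, a coat protein of lipid droplets, had the highest r with Fkbp5 of any gene (r = 0.88, rho = 0.85, permutation p = 1e-05 for each, adjusted p = 0.0125, r = 0.78 without those libraries). None of the 15 immediate early genes, 15 circadian genes, 15 p53 targets, 11 metal response genes or 14 ATF4 and hypoxia genes was called with Fkbp5, and the median r of these lists ran from 0.07 to 0.19. Of 19 receptor machinery genes 1 was called, H6pd (r = 0.71, rho = 0.68, adjusted p = 0.0352). Of 12 spinal cord identity genes 1 was called, Hoxd10, and it ran against Fkbp5 (r = -0.69, rho = -0.62, adjusted p = 0.0329). The lists were chosen with earlier results known, and their counts are descriptions.

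The genes most like each called gene, by Pearson r over the same 32 libraries, overlapped only in part. For Fkbp5 they were Plin4, Map3k6, Klf13 (0.85), Zbtb16 and Ptpn11 (0.80), and for Zbtb16 Adipor2 (0.85), Klf13 (0.85), Arid5b (0.84), Foxo3 (0.84) and Gpt2 (0.83). For Tsc22d3 they were Sgk1, Polr3e (0.88), Plekhf1 (0.85), Rhou (0.84) and Map3k6 (0.81). Nr3c1 was most like Stam (0.97), Edem3 (0.97), Mfsd14b (0.96), Caprin1 (0.96) and Eea1 (0.96). Mt1 was most like Mt2, Tsc22d4 (0.96), Mt3 (0.95), Nkx6-2 (0.95) and Apoe (0.95). Mt2 was most like Mt1, Pnpla2 (0.93), Tmem52 (0.91), Tsc22d4 (0.90) and Nkx6-2 (0.90). These r values were not corrected for GC content. Nr3c1, Mt1 and Mt2 followed the GC slope of the library (r = -0.85, 0.89 and 0.83), and its part in their likeness to other genes was not tested.

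Among other genes of the pathway, the machinery of the receptor held the largest genotype difference. Of 19 such genes 2 rose and 8 fell for the mean of the ages, where 19.7% of all genes rose and 19.2% fell. Hsd11b1, the enzyme that regenerates active glucocorticoid from its inert form inside cells, was lower in CHMP2Bintron5 at every age. Controls had 26.1 to 37.2 CPM at 1.5 months, 22.6 to 39.8 CPM at 6 months and 27.6 to 34.4 CPM at 10-12 months, and CHMP2Bintron5 had 13.7 to 17.2, 10.2 to 15.3 and 12.2 to 15.9 CPM. No CHMP2Bintron5 library of any age reached the lowest control. In order of age it fell by 0.92 ± 0.12, 1.13 ± 0.14 and 1.18 ± 0.12 on the log2 scale (SE, adjusted p = 1.66e-05, 8.9e-06 and 1.56e-07), and the mean of the 3 was -1.08 ± 0.07 (adjusted p = 9.57e-12), a level 2.11-fold lower. Its call stood in every fit run without 1 library and was -1.01 (adjusted p = 1e-12) after the GC and length correction.

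Other machinery genes moved less. The chaperones Hspa8 (-0.45 ± 0.08, adjusted p = 3.67e-05), Hsp90aa1 (-0.26 ± 0.05, adjusted p = 0.000494) and Stip1 (-0.26 ± 0.03, adjusted p = 4.37e-07), which assemble the receptor complex, fell. Abcb1a, the efflux pump of the blood-brain barrier that exports steroids, fell as well (-0.32 ± 0.07, adjusted p = 0.000676), beside the lower endothelial markers. The coactivators Ncoa3 (0.28 ± 0.04, adjusted p = 8.56e-06) and Crebbp (0.22 ± 0.03, adjusted p = 6.86e-06) rose. Hsp90aa1, Stip1 and Crebbp were named after their values were seen.

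Of the 25 other induced genes 3 rose and 4 fell for the mean of the ages, a smaller share than the 38.9% of all genes called. Klf9, a transcription factor induced by the receptor, had 68 ± 14.1 CPM in the 17 controls and 46.6 ± 8.17 CPM in the 15 CHMP2Bintron5 libraries (SD), and fell by 0.56 ± 0.10 on the log2 scale (adjusted p = 0.000101). Anxa1, an anti-inflammatory protein, fell (-0.54 ± 0.14, adjusted p = 0.00325), as did Glul, the glutamine synthetase of astrocytes (-0.30 ± 0.06, adjusted p = 0.000462). Cebpd, a transcription factor that inflammation also induces, rose (0.69 ± 0.22, adjusted p = 0.0122). Anxa1 and Cebpd were not called without the Acta1 libraries (-0.40, adjusted p = 0.0536, and 0.61, adjusted p = 0.0578).

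At 10-12 months 3 of the 25 rose and 3 fell, near the 8.24% and 10.4% of all genes. Hif3a (1.17 ± 0.39, adjusted p = 0.0356) and Map3k6 (1.14 ± 0.39, adjusted p = 0.0385) were among those that rose. Hif3a had 7.54 to 17.2 CPM in controls and 8.25 to 68.3 CPM in CHMP2Bintron5, and Map3k6 had 1.85 to 4.64 CPM and 2.39 to 18.2 CPM. Replicate 6 was the highest transgenic library for both, and without it they were at 0.54 (adjusted p = 0.246) and 0.60 (adjusted p = 0.216). Both were lost as well without control replicate 2, 3 or 4 or CHMP2Bintron5 replicate 4, and Hif3a without control replicate 6 (1.02 to 1.22, adjusted p = 0.0512 to 0.1). With the spread of the 2 groups alone neither was called (Hif3a 1.16, adjusted p = 0.0654, and Map3k6 1.12, adjusted p = 0.075), and Map3k6 was not called after the GC and length correction (0.94, adjusted p = 0.0751) or with no count filter (1.13, adjusted p = 0.051). Plin4 had 10.2 to 35.3 CPM in controls and 15.4 to 194 CPM in CHMP2Bintron5, and it rose by 1.90 ± 0.43 (adjusted p = 0.00368). Without replicate 6 Plin4 was at 1.18 (adjusted p = 0.0255), and its call stood in 12 of 12 fits without 1 library. Of 7 adipocyte markers, Adipoq was at most 1.13 CPM and Plin1 at most 0.376 CPM in any library. At 10-12 months the 7 summed to 0.446 to 2.71 CPM in controls and 1.02 to 2.33 CPM in CHMP2Bintron5. Their sum reached 10.7 CPM in CHMP2Bintron5 at 6 months. The tissue source of Plin4 was not tested.

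**Figure D4:**
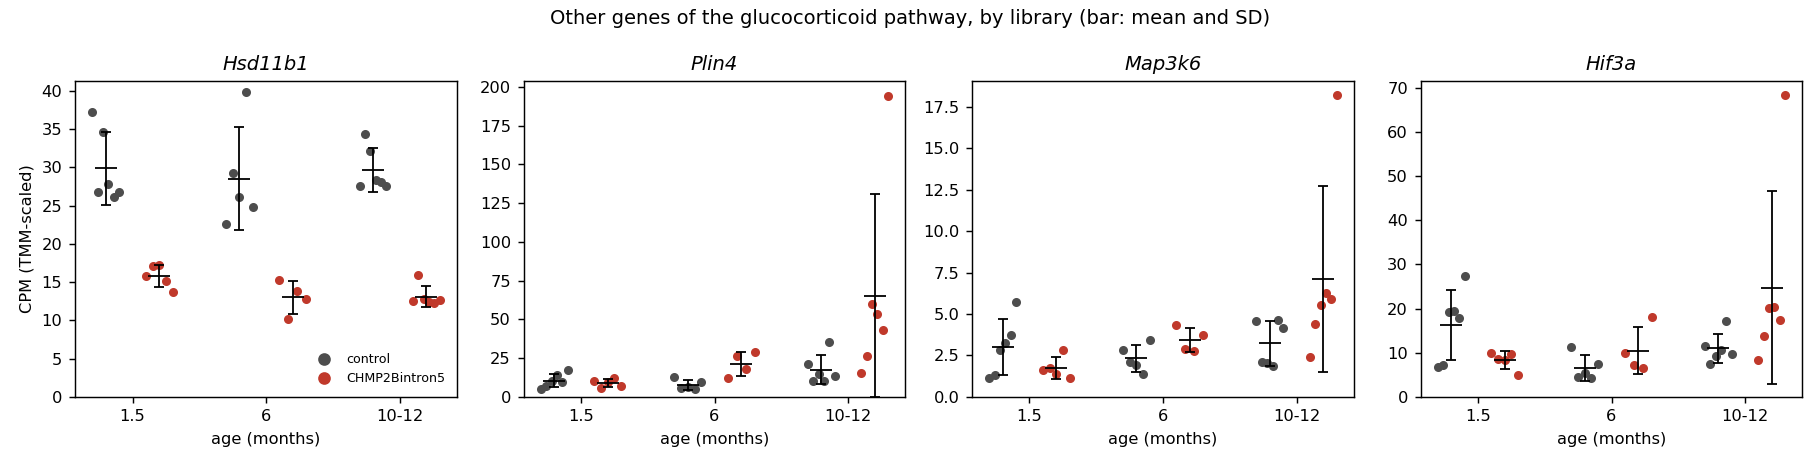
CPM (TMM-scaled, y axes from 0) of Hsd11b1, Plin4, Map3k6 and Hif3a in each library by age in months, controls in grey and CHMP2Bintron5 in red, with the group mean and SD in black. Hsd11b1 does not exceed 17.2 CPM in CHMP2Bintron5 or fall under 22.6 CPM in controls, and the other 3 are highest in CHMP2Bintron5 replicate 6 at 10-12 months.

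Neighbouring stress programs were read beside the 10 genes, all for the mean of the ages, in which 38.9% of all genes were called (19.7% higher and 19.2% lower). The counts of the p53, circadian and metal response lists were near that background, and the share of immediate early genes called was below it. No count of a list was tested against the background. Of 15 immediate early genes 4 rose and 0 fell, with Atf3, an injury-induced factor, at 0.95 ± 0.12 (adjusted p = 4.5e-07) and Jun at 0.34 ± 0.08 (adjusted p = 0.000689). Of 11 metal response genes other than Mt1 and Mt2, 1 rose and 4 fell. The zinc exporter Slc30a1, a gene that zinc induces together with the metallothioneins, fell (-0.48 ± 0.08, adjusted p = 1.83e-05), while Slc30a10, a manganese exporter, rose (0.32 ± 0.05, adjusted p = 2.41e-05). Mt3, the neural metallothionein, was not called (0.22 ± 0.13, adjusted p = 0.183). Of 15 p53 targets other than Cdkn1a 4 rose and 2 fell, with Bbc3, a promoter of cell death, at 0.76 ± 0.21 (adjusted p = 0.0049). Of 14 ATF4 and hypoxia genes other than Ddit4 2 rose and 6 fell, with Egln3, an oxygen sensor, at -0.42 ± 0.05 (adjusted p = 5.23e-08) and Ddit3 at 0.38 ± 0.09 (adjusted p = 0.0017). Of 15 circadian genes 3 rose and 3 fell, with Clock at -0.32 ± 0.09 (adjusted p = 0.00587) and its paralogue Npas2 at 0.26 ± 0.08 (adjusted p = 0.00959). Of 15 fasting and PPAR genes other than Pdk4 4 rose and 4 fell, with Ucp3 at -0.39 ± 0.07 (adjusted p = 0.000109). The GC and length correction left Clock at -0.12, Jun at 0.19 and Bbc3 at 0.43, all still called. Its effect was followed for up to 4 called genes of each list, those with the largest change, and 4 of these lost their call. They were Nr4a1 (0.38 to 0.20, adjusted p = 0.0826) and Npas4 (0.34 to 0.20, adjusted p = 0.119) of the immediate early genes, Bax of the p53 targets (0.40 to 0.05, adjusted p = 0.541) and Hlf of the circadian genes (-0.21 to -0.10, adjusted p = 0.0854). For the remaining counted genes the corrected values are not given here.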

How the data were processed

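Poly(A) RNA from 32 mouse spinal cord samples was sequenced on a stranded kit, per the labels' protocols. The authors deposited raw read counts per gene. The submitters' processing notes name bcl2fastq 2.17.1.14, TopHat2 2.0.14, Bowtie2 2.1.0, HTSeq 0.6.1 and the build mm10. For the counting, neither strand setting nor annotation release is stated there. Of 45706 genes, 563 without a symbol held 0.0788% of counts. Positions, GC content and length came from GENCODE M21 (GRCm38).

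From the counts, edgeR 4.0.16 (R 4.3.3) fitted a quasi-likelihood model with 1 term per group over all 32 libraries after TMM scaling. filterByExpr (minimum count 10, minimum total 15) left 20015 genes. A gene was called at a Benjamini-Hochberg adjusted p under 0.05 over these genes, in 13 comparisons. Depth was 28.4 to 85.3 times 1000000 counts. Correlations used log2(CPM + 1) with group means removed and 100000 permutations within groups (NumPy 2.4.6, SciPy 1.17.1). The GC and length correction was a spline with 5 degrees of freedom per library. The scripts were tested on simulated data. Alternatives were DESeq2 1.42.0, its size factors, no filter, a replicate block, the 2 compared groups alone, a pseudocount of 0.1, and fits without single libraries, the 2 with sensory neuron transcripts or the 6 with Acta1 over 30 CPM.

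The members and lists were chosen with earlier results of these data known. Named genes were the 10 listed, up to 4 called genes per other list with the largest genotype change and a mean of at least 1 CPM, and the 5 genes most like each gene called between genotypes. Others are marked as named after their values were seen.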

Additional observations from a re-analysis of the deposited data

Results flagged for a closer look

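In 8 of the 60 combinations of gene and group, 1 library stood apart from the rest of its group by Dixon's criterion on CPM. About 5% of groups meet it where values are normally distributed. That distribution was not checked for CPM, and the combinations share libraries, so the 8 cannot be weighed against this share. CHMP2Bintron5 replicate 6 at 10-12 months stood above its group in 3 genes, with Fkbp5 at 113 CPM (next highest 55.1), Tsc22d3 at 240 CPM (177) and Cdkn1a at 109 CPM (65.3). CHMP2Bintron5 replicate 4 at 1.5 months stood above in both metallothioneins, with Mt1 at 732 CPM (316) and Mt2 at 511 CPM (219). That library also had the highest GC slope of its group, 0.33 on the log2 scale per 10% GC, and its part in these values was not tested. Zbtb16 was at 26.3 CPM in control replicate 5 at 6 months (12.1), and Pdk4 was at 23.8 CPM in CHMP2Bintron5 replicate 3 at 1.5 months (13.1). Cdkn1a was low, at 31.7 CPM, in CHMP2Bintron5 replicate 1 at 1.5 months, where the next lowest was 48.6 CPM.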

How the results depend on the processing

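The 4 calls for the mean of the ages (Tsc22d3, Nr3c1, Mt1 and Mt2) stood in all 32 fits without 1 library and under every other alternative, except Mt2 without the Acta1 libraries. Calls at single ages rested on few libraries. With 1 library left out, the number of the 10 genes called ran from 0 to 2 at 1.5 months, 0 to 1 at 6 months, 0 to 5 at 10-12 months and 4 to 6 for the mean of the ages. It ran from 0 to 2 for controls between 6 and 1.5 months, 0 to 2 for CHMP2Bintron5 between 10-12 and 1.5 months, and was 0 in each such fit of the other age comparisons and the interactions. The number of correlated pairs ran from 14 to 20.

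The replicate block gave 1 called gene in place of 2 at 1.5 months and 1 in place of 2 in CHMP2Bintron5 between 10-12 and 1.5 months, where Zbtb16 was lost both times (-1.15, adjusted p = 0.0772, and 1.19, adjusted p = 0.0535). The block also ended the call of Hif3a at 10-12 months (0.89, adjusted p = 0.0671). Within an age, same-numbered libraries of the 2 genotypes correlated from -0.701 to 0.581, and 1 of 15 pairs correlated best with its own number. No pairing by number was seen there. Whether libraries of the same number were related across ages was not tested. Taking the spread from the compared groups alone gave 0 called genes at 1.5 months, 1 at 10-12 months (Fkbp5 lost) and 1 in CHMP2Bintron5 between 10-12 and 1.5 months, each against 2. The GC and length correction gave 1 in place of 0 at 6 months (Nr3c1, -0.18, adjusted p = 0.02) and 1 in place of 0 in controls between 6 and 1.5 months (Nr3c1, 0.22, adjusted p = 0.00187). Without the Acta1 libraries the count was 1 in place of 0 in controls between 6 and 1.5 months (Zbtb16, -1.48) and 0 in place of 2 in CHMP2Bintron5 between 10-12 and 1.5 months. Nr3c1 in controls between 6 and 1.5 months went from 0.13 to -0.00 without them, neither value called. The cause of these changes was not tested. The mean of the ages uses all groups, so it had no fit of compared groups alone.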
